A study of Mus musculus with 79 samples.

Results

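The nuclear genes for the subunits of the mitochondrial respiratory chain and ATP synthase were followed across marrow rich in fat, marrow with little fat and subcutaneous fat of mice given leptin or PBS. Members were taken by symbol among the 39063 features with a numeric gene ID: Nduf genes of the a, b, c, s and v series, Sdha to Sdhd, and the Uqcr, Cox4i, Cox5, Cox6, Cox7, Cox8 and Atp5 genes, without pseudogenes or assembly factors. This gave 89 genes, of which 42 were counted to complex I, 4 to complex II, 8 to complex III, 18 to complex IV and 17 to complex V. Tested were the 86 whose mean reached 0.4 TPM (a level per transcript length, scaled to a fixed total) over all 79 libraries, among 14873 genes in all. Cox8c reached at most 0.72 TPM, Cox7b2 and Ndufa11b were at 0 TPM in every library, and these 3 were not tested. Reads of Ndufb4, Ndufb4b and Ndufb4c, and of Ndufs6b and its parent gene, may be shared between near-identical copies, so the values of these genes are uncertain.

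RNA came from 51 mice on a mixed SJLxC57BL6 background, aged 4 to 5 months by the deposited design text, while the study's legends give a range that reaches older ages, in particular for the mice with insulin. Each was infused into the cerebral ventricles (ICV) for 9 days with PBS or with leptin at 100 ng per h and pair fed after surgery. Controls with PBS therefore carried a cannula and pump too. WT mice were BMAd-Pnpla2+/+, and BMAd-Pnpla2-/- mice lacked the lipase ATGL, encoded by Pnpla2, in bone marrow adipocytes, while other cells kept the gene. Caudal vertebrae (CV), which hold stable marrow fat, were sequenced from all 51 mice, lumbar vertebrae (LV), used as marrow with little fat, from 18 females, and inguinal white adipose tissue (iWAT) from 10 WT females. In CV there were 5 WT females with PBS and 5 with leptin, 4 BMAd-Pnpla2-/- females with PBS and 4 with leptin, 5 WT males with PBS and 8 with leptin, and 5 BMAd-Pnpla2-/- males with PBS and 4 with leptin. A further 5 WT males with PBS and 6 with leptin also carried subcutaneous insulin pellets. Each library is 1 mouse, and the whole bone or fat pad was sampled, so that fewer cells of a type and less RNA per cell cannot be told apart in any value given here. CV libraries held 16100377 to 19364106 counts, iWAT libraries 17638318 to 19100698 and LV libraries 28717516 to 29757254.

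The respiratory chain passes electrons from NADH, through complex I, and from succinate, through complex II, by way of ubiquinone to complex III and then by cytochrome c to complex IV, which reduces oxygen. Complexes I, III and IV pump protons across the inner mitochondrial membrane, and complex V lets them back in to make ATP, while in thermogenic fat the uncoupling protein Ucp1 lets them back in to release heat. Most subunits are encoded in the nucleus and a small core in mitochondrial DNA. Several subunits of complex IV exist as a form found body-wide and a form typical of heart, skeletal muscle and brown fat. The latter is called the muscle form below, which does not say from which cells its RNA came. The 13 mitochondrially encoded subunits were listed at 0 in all libraries and were not analysed further.

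Promoters are shown because the forms of complex IV described below differ in where they are expressed. Each sequence is the 170 bases before the RefSeq transcript start on GRCm38.p6, 5′ to 3′ on the strand of the gene, and capitals mark a match to the NRF1 motif GCGCANGCG or the ETS motif CCGGAAG on either strand. Cox6a1 (chr5:115348959-115349128, minus strand) and Cox8a (chr19:7217617-7217786, minus strand) encode the body-wide forms.

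Cox6a1: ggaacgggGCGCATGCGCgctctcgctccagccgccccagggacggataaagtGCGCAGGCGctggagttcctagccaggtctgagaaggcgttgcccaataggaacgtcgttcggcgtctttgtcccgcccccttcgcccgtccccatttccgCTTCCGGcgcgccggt
Cox8a: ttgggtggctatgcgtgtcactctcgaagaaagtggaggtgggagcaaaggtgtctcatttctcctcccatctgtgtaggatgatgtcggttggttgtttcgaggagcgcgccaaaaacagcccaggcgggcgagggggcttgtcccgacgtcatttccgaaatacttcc

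Cox7a1 (chr7:30184001-30184170, plus strand) and Cox8b (chr7:140900447-140900616, minus strand) encode the forms typical of heart, skeletal muscle and brown fat, and fell most in complex IV with leptin in male CV.

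Cox7a1: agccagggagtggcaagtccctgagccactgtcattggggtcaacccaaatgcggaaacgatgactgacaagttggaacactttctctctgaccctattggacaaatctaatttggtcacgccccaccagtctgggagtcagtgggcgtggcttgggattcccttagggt
Cox8b: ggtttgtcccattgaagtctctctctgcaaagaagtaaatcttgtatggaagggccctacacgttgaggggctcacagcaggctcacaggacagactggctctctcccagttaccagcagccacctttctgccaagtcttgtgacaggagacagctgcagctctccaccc

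Sdha (chr13:74350241-74350410, minus strand), the flavoprotein subunit of complex II, differed most between iWAT and both marrows in its complex, and Atp5k (chr5:108434400-108434569, minus strand), subunit e of ATP synthase, fell with leptin in male CV and in iWAT.

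Sdha: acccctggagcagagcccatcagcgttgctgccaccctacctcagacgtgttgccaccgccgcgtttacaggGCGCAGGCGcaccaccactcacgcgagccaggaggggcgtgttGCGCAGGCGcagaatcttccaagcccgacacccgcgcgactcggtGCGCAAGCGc
Atp5k: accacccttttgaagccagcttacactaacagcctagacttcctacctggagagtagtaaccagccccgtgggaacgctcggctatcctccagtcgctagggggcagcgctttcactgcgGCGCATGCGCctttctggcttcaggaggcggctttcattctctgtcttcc

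The NRF1 motif occurred 2 times in the Cox6a1 window, 3 times in that of Sdha and 1 time in that of Atp5k, and not in those of Cox8a, Cox7a1 or Cox8b. RefSeq promoters were at hand for 70 of the 89 members, with 75 promoters in all. In the 250 bases before the start, NRF1 motifs were found in 15 of these 75 (20%) and in 5.16% of all 32851 promoters in the table. The 15 comprised 7 of 36 in complex I, 2 of 3 in complex II, 0 of 5 in complex III, 1 of 13 in complex IV and 5 of 18 in complex V. ETS motifs were found in 12 of the 75 (16%) and in 6.91% of all promoters, ERR motifs (TCAAGGTCA) in 1 (1.33%) and in 0.387%, and YY1 motifs (AAGATGGCG) in 1 (1.33%) and in 0.606%. Both strands were searched, overlapping matches of a motif counted once, and no NRF1 match shared letters with an ETS match in the windows shown. A match to such letters is a description of the window and not a binding site.

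Together the 89 genes took 3.57% to 6.61% of the TPM of a CV library, 3.38% to 6.49% in iWAT and 2.14% to 2.45% in LV. By mean TPM over the 79 libraries, the highest members were Ndufa4 (1327) in complex I by name, Sdhb (246), the iron-sulphur subunit of complex II, Uqcr10 (978) in complex III, Cox4i1 (1536) in complex IV and Atp5l (1771), subunit g of ATP synthase, in complex V. Ndufa4 was named as a subunit of complex I and later assigned to complex IV.

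**Figure D1:**
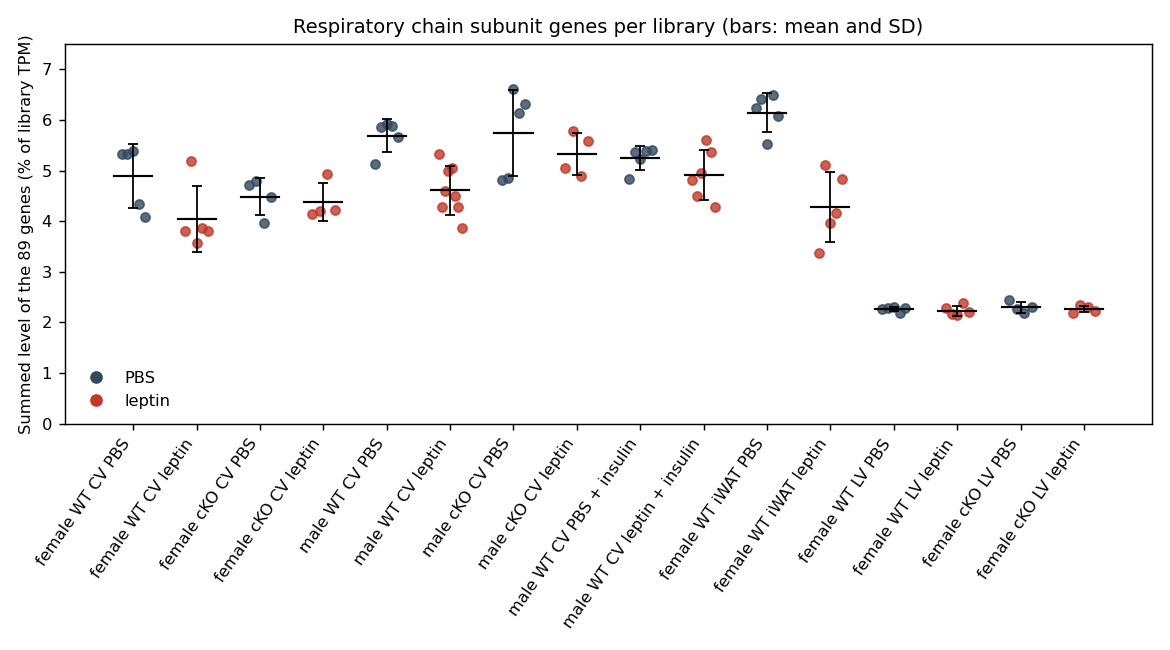
Summed level of the 89 subunit genes in each library, as a percent of its TPM, for the 16 groups, with cKO for BMAd-Pnpla2-/-. Points are libraries, and lines and bars are mean ± SD. The 5 iWAT libraries with leptin lie below the 5 with PBS, CV of WT mice are lower on average with leptin in both sexes with overlap, and the 18 LV libraries lie between 2.14% and 2.45%.

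The first question was how the 3 tissues differ in WT females with PBS. Summed over all 89 genes, levels were 48918 ± 6269 TPM in CV, 61440 ± 3818 TPM in iWAT and 22675 ± 418 TPM in LV (mean ± SD, n = 5 each). The ratio of iWAT to LV was largest in complex II, at 793 TPM in CV, 1336 TPM in iWAT and 379 TPM in LV, with each complex highest in iWAT and lowest in LV. On this scale 85 of the 86 tested members were higher in CV than in LV on average and 1 was lower, with a median log2 ratio of 1.13 beside 0.87 for all tested genes. LV libraries carried 135870 to 274854 TPM of 7 erythroid markers and 129043 to 258171 TPM of 8 neutrophil markers, and TPM has a fixed total in each library.

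Counts were compared with edgeR's quasi-likelihood test after TMM normalisation, which scales libraries so that the bulk of genes is centred, with Benjamini-Hochberg adjustment over all tested genes. A gene is said to have risen or fallen where the adjusted p was below 0.05. The tissues came from the same mice, but the mouse was not a factor in this fit, so the p-values between tissues leave the pairing out. On the TMM scale the median log2 difference between CV and LV was 0.02 both for members and for all tested genes. Between CV and LV, 23 members were higher in CV (41.4% of all tested genes were) and 27 were lower (40.7%), in complex I 16 and 11, in complex II 0 and 1, in complex III 1 and 2, in complex IV 5 and 7, and in complex V 1 and 6. Against iWAT, CV was higher for 9 members (35.6% of all tested genes) and lower for 57 (37.3%), with a median of -0.56 beside -0.01 for all genes. Between iWAT and LV, 54 members were higher in iWAT (41.4% of all tested genes) and 14 lower (41%), with a median of 0.53 beside -0.01. The split depended on the scale, and limma on log2(TPM + 1) called 84 members higher in CV than in LV and 1 lower, and 80 higher in iWAT than in LV and 3 lower. The TPM scale gave medians of -0.36 for CV against iWAT (0.14 over all genes) and 1.48 for iWAT against LV (0.71).

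Complex IV showed the widest differences, since the forms of its subunits went different ways. Cox6a2, the muscle form of subunit 6a, was at 701 ± 188.8 TPM in CV, 56.0 ± 19.3 TPM in LV and 10.8 ± 14.97 TPM in iWAT. In iWAT it read 16.6, 1.19, 0.63, 34.7 and 0.91 TPM in the 5 libraries, so that its mean rests on 2 of them. The body-wide form Cox6a1 went the other way, at 688.3 ± 51.7 TPM in CV, 526 TPM in LV and 2813 ± 216 TPM in iWAT. On the TMM scale Cox6a2 was higher in CV than in LV by 2.46 ± 0.55 (log2, SE) and than in iWAT by 5.86 ± 0.68 (adjusted p = 1.25e-06). Cox6a1 was lower in CV than in iWAT, with a log2 ratio of -2.24 ± 0.09 (adjusted p = 3.43e-12), and lower than in LV by TMM (-0.82) but higher by TPM.

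Cox7a1, the muscle form of subunit 7a, was at 656 ± 220 TPM in CV, 46.5 ± 18.3 TPM in LV and 108 ± 30.7 TPM in iWAT. Cox8b, the muscle form of subunit 8, was at 1182 ± 326 TPM in CV and 791 ± 94.2 TPM in iWAT, with 70.8 ± 24.5 TPM in LV. Both were higher in CV than in LV, Cox7a1 by 2.51 ± 0.33 and Cox8b by 2.75 ± 0.31 on the log2 scale (adjusted p = 3.06e-06 and 4.07e-07), and Cox7a1 was higher than in iWAT by 2.40 ± 0.34. Cox8b did not pass the test between CV and iWAT (0.37). The body-wide Cox8a stood at 639 TPM in CV, 533 TPM in LV and 1995 TPM in iWAT, lower in CV than in LV on the TMM scale (-0.95 ± 0.10) and higher in TPM. Muscle markers differed in the same order as Cox6a2, with sums over 15 genes of 34354 to 69896 TPM in the 5 CV libraries and 1386 to 4912 TPM in the 18 LV libraries. The iWAT libraries with PBS held 107 to 4426 TPM of these markers, and none of the 15 was at 0 in any of the groups. Cox7a1 and Cox8b did not share that order, with higher mean TPM in iWAT than in LV. An alternative chosen after the data were seen took the mean log2 level of the muscle markers as a covariate. The difference of Cox6a2 between CV and LV then turned to -0.29 (adjusted p = 0.627). Some other tissue calls were lost, among them Cox7a1 between CV and iWAT (1.21, adjusted p = 0.142). Marker sums did not overlap between CV and the other tissues, so this covariate cannot separate muscle from tissue. The part of muscle fibres in these values was not tested.

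Cox6b2, known as the testis form of subunit 6b, was highest in LV. It read 49.3, 51.7, 48.8, 53.6 and 50.3 TPM in LV, 2.28, 1.89, 2.55, 1.73 and 1.27 TPM in CV, and 3.98, 9.78, 9.73, 7.14 and 5.47 TPM in iWAT. The 3 tissues did not overlap, and LV was the highest. By TMM, CV was below LV with a log2 ratio of -5.91 ± 0.25 (adjusted p = 3.01e-12), and iWAT was below LV with a ratio of -3.81 ± 0.21. Its body-wide partner Cox6b1 was at 1196 TPM in CV, 678 TPM in LV and 2212 TPM in iWAT. Cox4i2, a form of subunit 4 described in lung, was at 49.2 TPM in CV, 16.2 TPM in LV and 13.4 TPM in iWAT, far below Cox4i1 at 1611, 639.5 and 2734 TPM.

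In complex I by name, Ndufa4l2, a hypoxia-induced relative of Ndufa4, had the largest difference in favour of CV. It read 158, 140.29, 139, 162.7 and 196 TPM in CV, with means of 23.5 ± 3.12 TPM in LV and 19.4 ± 7.38 TPM in iWAT. Its log2 ratio was 1.62 ± 0.18 over LV (adjusted p = 2.76e-07) and 2.84 ± 0.19 over iWAT (adjusted p = 1.81e-09). Ndufb5 was higher in CV than in both other tissues, by 0.84 ± 0.13 over LV and 0.47 ± 0.13 over iWAT. With the muscle covariate the difference from iWAT was 0.16 (adjusted p = 0.644). Ndufs5 was lower in CV than in iWAT (-1.20 ± 0.13), and Ndufa3 lower in CV than in both (-0.84 ± 0.17 and -1.02 ± 0.17), although by TPM Ndufa3 was higher in CV than in LV.

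Complex II was highest in iWAT. Sdha read 158, 156, 159, 149 and 138 TPM in CV, 63.4, 60.7, 63.7, 57.3 and 63.9 TPM in LV, and 404, 344, 329, 481 and 466 TPM in iWAT. The tissues did not overlap, with iWAT at the top. By TMM, Sdha was lower in CV than in iWAT (-1.59 ± 0.11, adjusted p = 2.35e-09), as were Sdhb (-0.76), Sdhc (-0.72) and Sdhd (-0.64). Between CV and LV only Sdhd passed the test by TMM (-0.63 ± 0.08), a direction that TPM turned, at 173 TPM in CV and 124 TPM in LV.

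In complex III, Uqcr11 and Uqcrfs1, the Rieske iron-sulphur protein, were lower in CV than in iWAT (-1.14 ± 0.14 and -1.10 ± 0.11). In complex V the 3 genes for subunit c of the rotor, which encode the same mature protein, kept 1 order in the 3 tissues, with Atp5g3 highest and Atp5g1 lowest, but differed in where each was highest. Atp5g1 was at 495 TPM in CV, 155 TPM in LV and 124 TPM in iWAT, and Atp5g3 at 983, 467 and 2165 TPM, while Atp5g2 was at 794, 348 and 653 TPM. Atp5g1 was higher in CV than in iWAT by 1.83 ± 0.17 and Atp5g3 lower (-1.40 ± 0.14, adjusted p = 2.36e-07). Atp5d, a subunit of the central stalk, was lower in CV than in iWAT too (-1.13 ± 0.14). The catalytic subunit Atp5b was higher in iWAT than in LV by 1.03 ± 0.13.

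**Figure D2:**
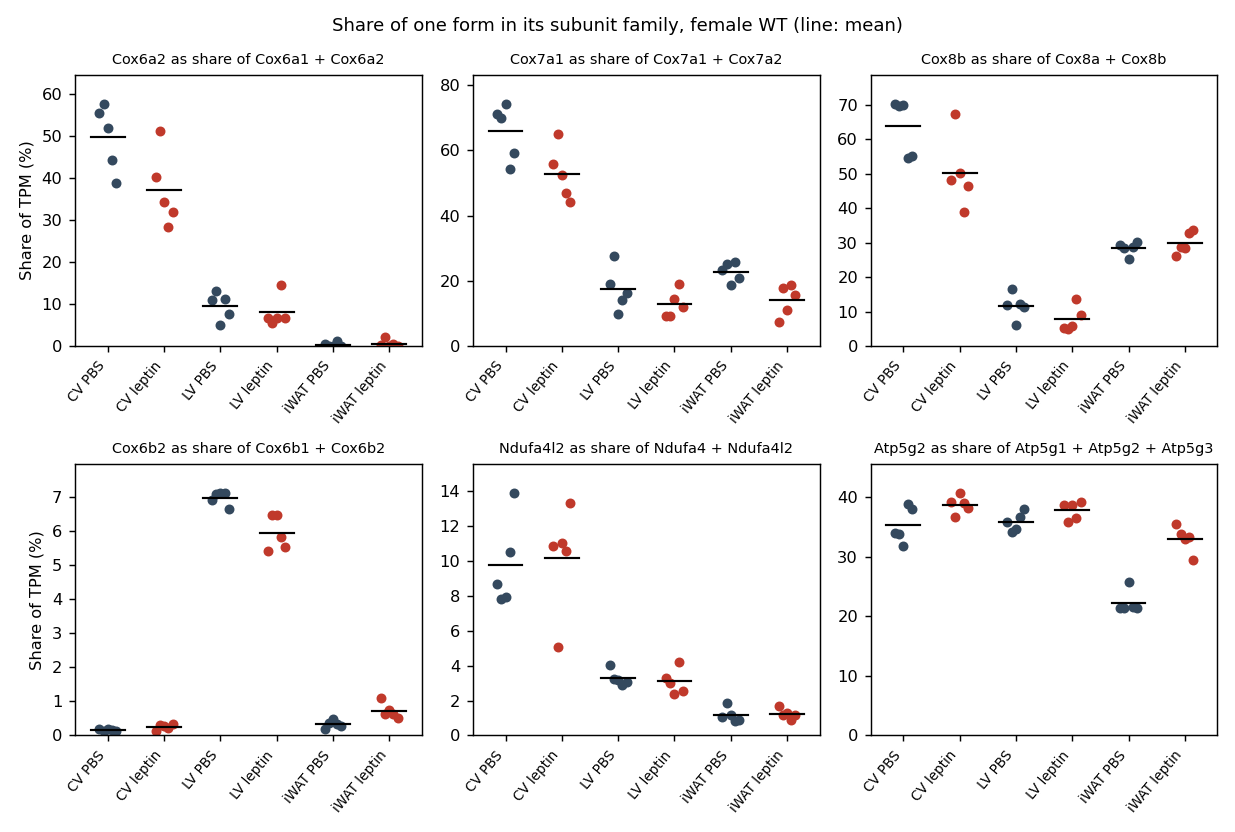
Share of 1 form in the summed TPM of its family, in percent, in CV, LV and iWAT of WT females with PBS or leptin, with a panel for each of 6 forms. Points are libraries and lines are means. Cox6a2 and Cox7a1 take their highest shares in CV, Cox6b2 in LV, and the share of Atp5g2 in iWAT is higher with leptin than with PBS without overlap.

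ATGL was the gene deleted in marrow fat, and Pnpla2 was checked first. In female CV with PBS its level was 251 ± 30.0 TPM in WT (n = 5) and 179 ± 58.4 TPM in BMAd-Pnpla2-/- mice (n = 4), and in male CV 244 ± 42.9 and 167.96 ± 34.6 TPM (n = 5 each), with overlap between genotypes in both sexes. Pnpla2 is also expressed by cells other than adipocytes. Between genotypes with PBS, 0 members passed the test in females and 0 in males, as for 0% and 0% of all tested genes. By unadjusted p below 0.05, 2 members differed in females and 0 in males, counts without the share of all tested genes. DESeq2 and limma called 0 members as well. Median log2 differences were -0.14 in females, with 81 of 86 members below 0, and 0.04 in males.

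In CV of WT females, leptin was followed by lower levels of Atp5o and Ndufa5, and by lower values over most other members that did not pass the test one by one. Atp5o, the subunit that ties the peripheral stalk of ATP synthase to its catalytic head, read 736, 733, 691.8, 591 and 555 TPM with PBS and 494, 461, 474, 513 and 458 TPM with leptin. Ndufa5, an accessory subunit of complex I, read 439, 422, 409, 421 and 369 TPM with PBS and 284, 355, 301, 314 and 299.62 TPM with leptin. In neither gene did the groups overlap. By edgeR, Atp5o fell by 0.53 ± 0.11 on the log2 scale (adjusted p = 0.0203) and Ndufa5 by 0.47 ± 0.12 (adjusted p = 0.0323).

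Those 2 were the members called of 86 in female WT CV, with 0 risen, where 4.85% of all tested genes rose and 3.93% fell. In 84 of 86 members the difference was below 0 and the median was -0.33, beside -0.01 over all tested genes. By complex the median was -0.34 in I, -0.14 in II, -0.33 in III, -0.28 in IV and -0.33 in V. At an unadjusted p below 0.05 stood 32 members, 17 of them in complex I, 0 in II, 2 in III, 7 in IV and 6 in V. The share of all tested genes at that level is not given here, so this count shows no excess. TPM values did not overlap and were lower with leptin for 4 members, where 2.75% of all tested genes were. Apart from the low-level copies Ndufb4b (-3.24 ± 1.49, at 0 to 4.56 TPM) and Ndufs6b (-1.33), neither of which passed, the muscle forms Cox7a1 and Cox8b had the largest differences. Cox7a1 read 769.51, 757, 905, 450.08 and 399 TPM with PBS and 292, 565, 248.8, 290.16 and 247 TPM with leptin (-1.09 ± 0.33, adjusted p = 0.0639). Cox8b read 1451, 1359, 1445, 815 and 841 TPM with PBS and 588, 1259, 618, 449.65 and 584 TPM with leptin (-0.85 ± 0.34, adjusted p = 0.138). Leptin replicate 2 was the highest leptin library for both, and for Cox6a2, which read 827, 877, 808, 521 and 473 TPM with PBS and 440.42, 795, 384, 304 and 370.11 TPM with leptin.

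The same library held 57386 TPM of muscle markers, against 26199 TPM at the least among the leptin libraries, and the PBS libraries held 34354 to 69896 TPM. Of the 15 muscle markers, 1 fell in female WT CV, myoglobin (Mb, -1.04, adjusted p = 0.00951), with a median of -0.71 over the list. Without leptin replicate 2, 48 members fell, among them Cox7a1 (-1.46), Cox8b (-1.26) and Cox6a2 (-1.03). Without PBS replicate 1 or 2 the count was 0, without PBS replicate 5 it was 5, without PBS replicate 3 it was 2, and without any other single mouse it was 1. With the muscle markers as a covariate, 4 members fell, namely Ndufa4l2 (-0.56), Cox7a1 (-0.47), Atp5o (-0.34) and Ndufa5 (-0.29), and the median of all members was -0.05. The share of all tested genes is not given for the fits without a mouse or with the covariate. Their counts can therefore not be read as an excess of members. The part of muscle fibres in the result without the covariate was not tested. Erythroid markers moved too, at 2326 to 7051 TPM with PBS and 5754 to 24907 TPM with leptin, with 3 of 7 risen and 1 fallen. White adipocyte markers, of which 3 of 9 fell, summed to 9118 to 12924 TPM with PBS and 5318 to 10321 TPM with leptin, and 3 of 5 macrophage, 3 of 6 osteoblast and 1 of 5 osteoclast markers rose.

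In CV of WT males, 24 members of complexes I, III, IV and V fell with leptin, led by the muscle forms Cox8b and Cox7a1. Cox8b read 1006, 1237, 1432, 1183 and 1327 TPM with PBS, and with leptin its lowest value was 496 TPM, its median 687.5 TPM and its highest 931 TPM (n = 8). Cox7a1 read 827, 911, 881, 1213 and 791 TPM with PBS, and 434, 525 and 698 TPM as lowest, median and highest with leptin. Every leptin library lay below every PBS library for both. Cox8b fell by 0.92 ± 0.13 on the log2 scale (adjusted p = 0.00173) and Cox7a1 by 0.85 ± 0.13 (adjusted p = 0.00389).

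Of complex V, Atp5k read 1479, 1548, 1938, 1702 and 1809.7 TPM with PBS, and 909, 1155 and 1475 TPM as lowest, median and highest with leptin, without overlap. It fell by 0.61 ± 0.10 (adjusted p = 0.00567). Atp5o, called in females too, fell by 0.47 from 919 ± 72.5 to 691.8 ± 87.1 TPM (adjusted p = 0.0229). In complex I, Ndufa4 was at 1676 to 2015 TPM with PBS, and 1053, 1401 and 1636 TPM as lowest, median and highest with leptin (-0.50 ± 0.11, adjusted p = 0.0254), and Ndufb2 fell by 0.61 ± 0.13 from 116 ± 16.98 to 78.6 ± 14.03 TPM with overlap. In complex III, Uqcr11 fell by 0.40 ± 0.10 from 886 ± 32.1 to 708 ± 84.98 TPM (adjusted p = 0.0391), and the core protein Uqcrc1 fell by 0.30 from 279 ± 17.5 to 234 ± 7.54 TPM (adjusted p = 0.0479), both without overlap. In complex II no member passed, with log2 differences that had a median of -0.26, and Sdhc at -0.28 ± 0.08 (adjusted p = 0.086).

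By complex, 11 members fell in I, 0 in II, 2 in III, 6 in IV and 5 in V, with 0 risen, where 1.22% of all tested genes rose and 1.7% fell. The difference was below 0 in 81 of 86 members, with a median of -0.35 beside 0.00 over all tested genes. An unadjusted p below 0.05 was reached by 72, a count without the share of all tested genes. TPM values did not overlap and were lower with leptin for 19 members, where 0.84% of all tested genes were. Both members called in females were among the 24, so that the shared calls are 2 of 2 in females and 2 of 24 in males.

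Muscle markers summed to 71138 to 86736 TPM with PBS and 38735 to 68531 TPM with leptin in these males, and 3 of the 15 fell, Pvalb (-0.90), Mb (-0.77) and Tnnc2 (-0.63), with a list median of -0.52. With the markers as a covariate, Cox8b (-0.65, adjusted p = 0.00771) and Cox7a1 (-0.68, adjusted p = 0.046) were the 2 members called, and the median was -0.20. Erythroid markers summed to 2101 to 5881 TPM with PBS and 7225 to 19123 TPM with leptin, with 4 of 7 risen, and white adipocyte markers to 6292 to 10695 and 5898 to 9024 TPM, with 3 of 9 fallen. The count of members was 46 without leptin replicate 1, 15 and 14 without leptin replicates 3 and 7, and 3, 4 and 7 without PBS replicates 2, 4 and 5. For these fits, too, the share of all tested genes is not given. The part of muscle fibres or of other cells was not tested.

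Over the 51 CV libraries the summed level of the 89 genes followed the summed muscle markers, both sums as log2 TPM. Pearson's r was 0.936 and Spearman's rho 0.938, and for deviations from the group means r was 0.885 and rho 0.863. Both sums come from the same libraries and are shares of the same TPM total. Without the 2 libraries farthest from the median, r was 0.934. By complex, r was 0.933 for I, 0.825 for II, 0.949 for III, 0.896 for IV and 0.933 for V.

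**Figure D3:**
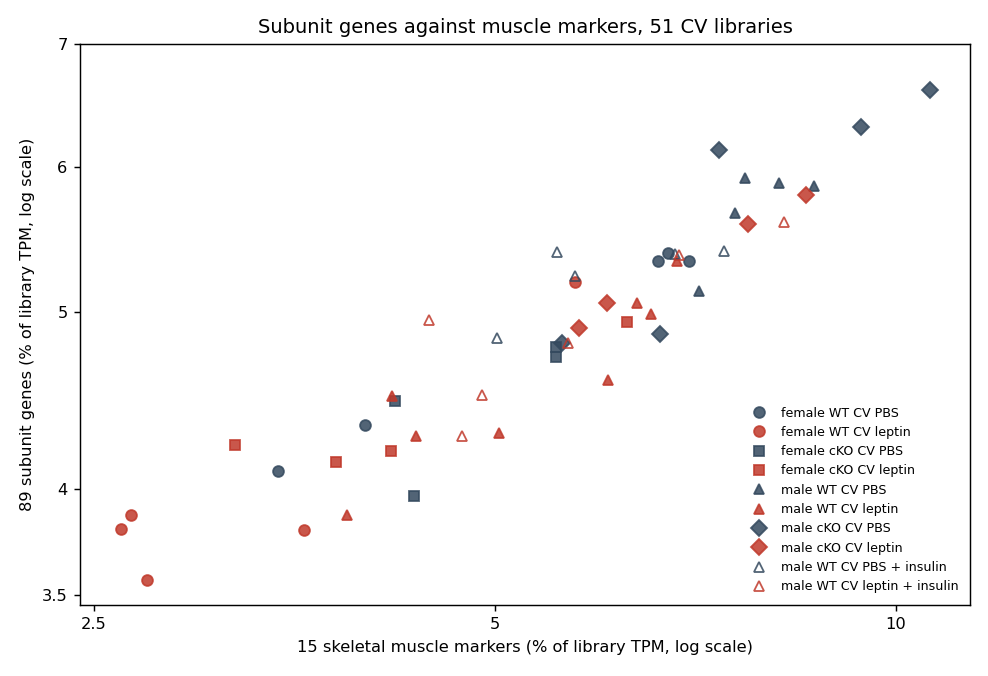
Summed level of the 89 subunit genes against summed level of 15 skeletal muscle markers in the 51 CV libraries, both as percent of TPM on logarithmic axes, with a symbol for each group. Subunit levels run from 3.57% to 6.61% and muscle markers from 2.62% to 10.6%, and libraries with more of one hold more of the other.

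Mouse numbers of the WT groups without insulin fall into a low and a high series, and the labels do not say what these are. Within the low and the high series the median difference of members between leptin and PBS on the log2 TPM scale was -0.26 and -0.15 for CV of WT females, with -0.20 and -0.43 for CV of WT males. Members were lower with leptin in 81 and 74 of 86 in females, and in 83 and 79 of 86 in males. In iWAT the medians were -0.49 and -0.50. A direct test of the sexes, as an interaction, called 0 members, as for 0% of all tested genes, with 1 member at an unadjusted p below 0.05 and 0 calls by DESeq2 or limma.

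Without ATGL in marrow fat, leptin was followed by no called member in either sex. In female BMAd-Pnpla2-/- CV, Atp5o read 664, 642, 556 and 568 TPM with PBS and 528, 621, 610.33 and 610.45 TPM with leptin. Ndufa5 read 369.55, 375, 333 and 364 TPM with PBS and 275, 328, 334 and 326 TPM with leptin. In both genes the groups overlapped. Of 86 members 0 were called in females, where 0.0269% of all tested genes were, with 0 at an unadjusted p below 0.05 and a median of 0.06 beside 0.02 over all genes. In male BMAd-Pnpla2-/- CV, Cox8b read 867, 850.25, 1348, 1133 and 1397 TPM with PBS and 961, 1229.94, 774 and 1173 TPM with leptin, a wide overlap. There too 0 members were called, where 0.208% of all tested genes were, with 2 at an unadjusted p below 0.05 and a median of -0.07 beside 0.00. The counts at an unadjusted p stand without the share of all tested genes. DESeq2 and limma called 0 members in both. Muscle markers had means of 49182 TPM with PBS and 43633 TPM with leptin in females, and 79305 and 70370 TPM in males.

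A call in WT and none in BMAd-Pnpla2-/- mice does not show a difference, so the difference itself was tested as an interaction, chosen after the other results were seen. It called 0 members in females and 0 in males, as for 0% and 0% of all tested genes, with 0 calls by DESeq2 or limma. At an unadjusted p below 0.05 stood 7 and 1 members, counts without the share of all tested genes. Leptin differences were higher without ATGL in 85 of 86 members in females, with a median of 0.36, and in 80 of 86 in males, with a median of 0.27. The median of this term over all tested genes is not given here, so a shift particular to the members is not shown. The terms were 0.57 ± 0.19 for Atp5o in females (adjusted p = 0.730) and 0.84 ± 0.28 for Cox8b in males (adjusted p = 1). Over the muscle markers the median of the same term was 0.62 in females and 0.37 in males. Some BMAd-Pnpla2-/- mice were of a number series without WT mice, so genotype and number series cannot be fully told apart. In males of this genotype, leptin and PBS mice were split unevenly between the series.

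Insulin pellets were added to learn whether leptin acts when insulin is kept up. With insulin, Cox8b read 721, 1115, 1038, 912 and 1062 TPM with PBS and 976, 646, 734, 1115, 967 and 615 TPM with leptin, with overlap and a log2 difference of -0.10 ± 0.18. Of 86 members 0 were called between leptin and PBS under insulin, where 0.881% of all tested genes were, with 3 at an unadjusted p below 0.05, a median of -0.03, and 0 calls by DESeq2 or limma. Between leptin with insulin and leptin alone 0 members were called, where 0.645% of all tested genes were, with 20 at an unadjusted p below 0.05, 64 of 86 above 0 and a median of 0.08. DESeq2 called 3 there, limma 0, and the fit with the muscle covariate 10. For these counts, and for those at an unadjusted p, the share of all tested genes is not given. The change of the leptin effect with insulin, a term chosen after the other results were seen, called 0 members, as for 0% of all tested genes. At an unadjusted p below 0.05 stood 47 members, 23 of them in complex I, 1 in II, 6 in III, 8 in IV and 9 in V. The share of all tested genes at that level is not given here. Of 86 members, 82 were above 0, with a median of 0.33, and the median over all tested genes is not given either. Cox8b had the term 0.82 ± 0.25 (adjusted p = 0.522), Atp5k 0.58, Ndufa4 0.55 and Ndufa5 0.53, and DESeq2 and limma called 0. Muscle markers averaged 61167 TPM with PBS and 58121 TPM with leptin under insulin. Mice with insulin have number series of their own, so that number series and insulin cannot be told apart. Under insulin, the PBS mice were all of a single series, while the leptin mice came from that series and another.

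**Figure D4:**
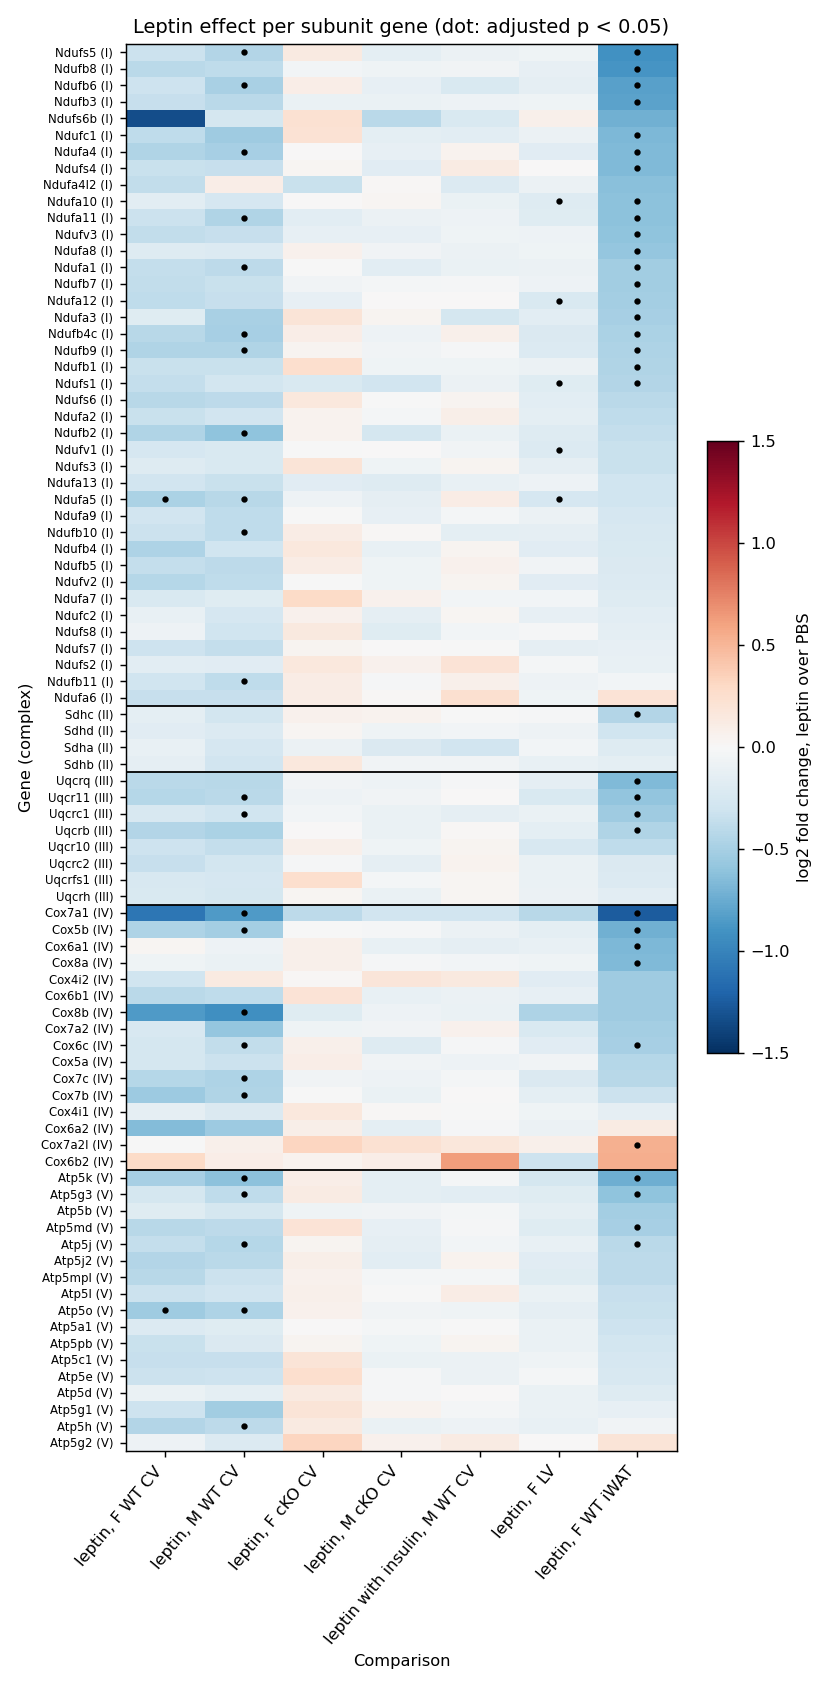
Log2 differences between leptin and PBS of 85 tested subunit genes, by complex, in 7 comparisons, with a dot where the adjusted p was below 0.05. Ndufb4b is left out, and the colour ends at the value marked on the bar. Lower values dominate in WT CV of both sexes and in iWAT, while no dot marks CV of BMAd-Pnpla2-/- mice (cKO on the axis) or CV under insulin.

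In iWAT of WT females, 33 members of all 5 complexes fell with leptin and 1 rose. Summed levels were 61440 ± 3818 TPM with PBS and 42856 ± 6938 TPM with leptin, and the highest leptin library, at 51092 TPM, lay below the lowest PBS library, at 55222 TPM. Complex I went from 17949 to 12379 TPM, complex II from 1336 to 1051, complex III from 6186 to 4415, complex IV from 17176 to 11634 and complex V from 18793 to 13377 TPM. By complex 19 members fell in I, 1 in II, 4 in III, 5 in IV and 4 in V, where 12.8% of all tested genes rose and 13.2% fell. The difference was below 0 in 80 of 86 members, with a median of -0.40 beside 0.07 over all genes, and TPM values did not overlap and were lower for 48, where 14.3% of all tested genes were. In place of 34 calls, 20 were made without PBS replicate 4, 22 without PBS replicate 2 and 21 without leptin replicate 4. The shares of all tested genes in these fits are not given here.

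Of complex I, Ndufb8, an accessory subunit of the membrane arm, read 1000.32, 1049, 858, 1094 and 959 TPM with PBS and 379, 622, 413, 469.78 and 567 TPM with leptin. Ndufs5 read 739, 819, 640.17, 659.76 and 665 TPM with PBS and 260.06, 410.04, 326, 307 and 443 TPM with leptin. The groups lay apart in both. By edgeR, Ndufb8 fell by 0.89 ± 0.15 on the log2 scale (adjusted p = 0.00211) and Ndufs5 by 0.91 ± 0.16 (adjusted p = 0.0026). Ndufa6 did not follow, at 646, 595, 592, 622 and 639 TPM with PBS and 546, 585, 728, 717 and 737 TPM with leptin, a difference of 0.21 ± 0.12 that did not pass.

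Of complex II, Sdhc, a membrane anchor, read 289.97, 322, 292, 298 and 299 TPM with PBS and 168.7, 276, 187.15, 183.9 and 220.3 TPM with leptin, and fell by 0.44 ± 0.13 (adjusted p = 0.0284). Sdha (-0.19), Sdhb (-0.14) and Sdhd (-0.30, adjusted p = 0.114) did not pass. In complex III, Uqcrq read 295, 357, 266, 284 and 283 TPM with PBS and 111, 250.15, 133, 165.9 and 217 TPM with leptin, and fell by 0.67 ± 0.21 (adjusted p = 0.0403). Uqcr11 fell by 0.59 ± 0.18 (adjusted p = 0.0325).

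In complex IV, Cox7a1 read 112, 107, 66.1, 152 and 102 TPM with PBS and 11.8, 52.1, 26.8, 61.2 and 56.9 TPM with leptin, and fell by 1.25 ± 0.41 (adjusted p = 0.0458, and 0.0524 with no TPM minimum). Cox5b read 1395, 1376, 1408, 1448 and 1348 TPM with PBS and 580.42, 929.98, 740.21, 720.6 and 958 TPM with leptin, and fell by 0.72 ± 0.14 (adjusted p = 0.00461). Every leptin library lay below every PBS library in both. The 1 member that rose was Cox7a2l, known for its part in joining complexes III and IV into supercomplexes. It read 295, 317, 345, 281 and 299 TPM with PBS and 414, 422, 406, 434 and 409 TPM with leptin, and rose by 0.54 ± 0.08 (adjusted p = 0.00143). The body-wide forms Cox6a1 (-0.67 ± 0.16, adjusted p = 0.0123) and Cox8a (-0.66 ± 0.17, adjusted p = 0.0191) fell, whereas Cox4i1 (-0.13), Cox7a2 (-0.51, adjusted p = 0.079), Cox8b (-0.53, adjusted p = 0.0975) and Cox6b2 (0.54, adjusted p = 0.152) did not pass.

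In complex V, Atp5k read 2393, 2369, 1953, 2289 and 2405 TPM with PBS and 929, 1401, 1109, 1365 and 1552 TPM with leptin, and fell by 0.73 ± 0.17 (adjusted p = 0.00976). Among the genes of subunit c, Atp5g3 fell by 0.60 ± 0.14 from 2165 ± 191 to 1321 ± 199 TPM (adjusted p = 0.00939), and Atp5g1 (-0.13) and Atp5g2 (0.20, adjusted p = 0.187) did not pass. The share of Atp5g2 in the 3 genes went from 22.3 ± 1.93% with PBS to 33.0 ± 2.21% with leptin, without overlap. The share of Cox7a1 in its family went from 22.8 ± 2.96% to 14.2 ± 4.85%, again without overlap. The share of Cox6b2 in its family lay apart too, higher with leptin in iWAT (0.325 ± 0.111% to 0.723 ± 0.227%) and lower in LV (6.96 ± 0.21% to 5.94 ± 0.51%). Each of these 4 had p = 0.00794 in a two-sided exact permutation test of 5 against 5, the smallest the design allows, but over the 42 shares compared the smallest adjusted p was 0.0667 and none passed. In male WT CV, Cox8b went from 63.1 ± 3.23% of its family to 49.7 ± 6.29% (p = 0.00389 by the same exact test, adjusted p = 0.0667).

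**Figure D5:**
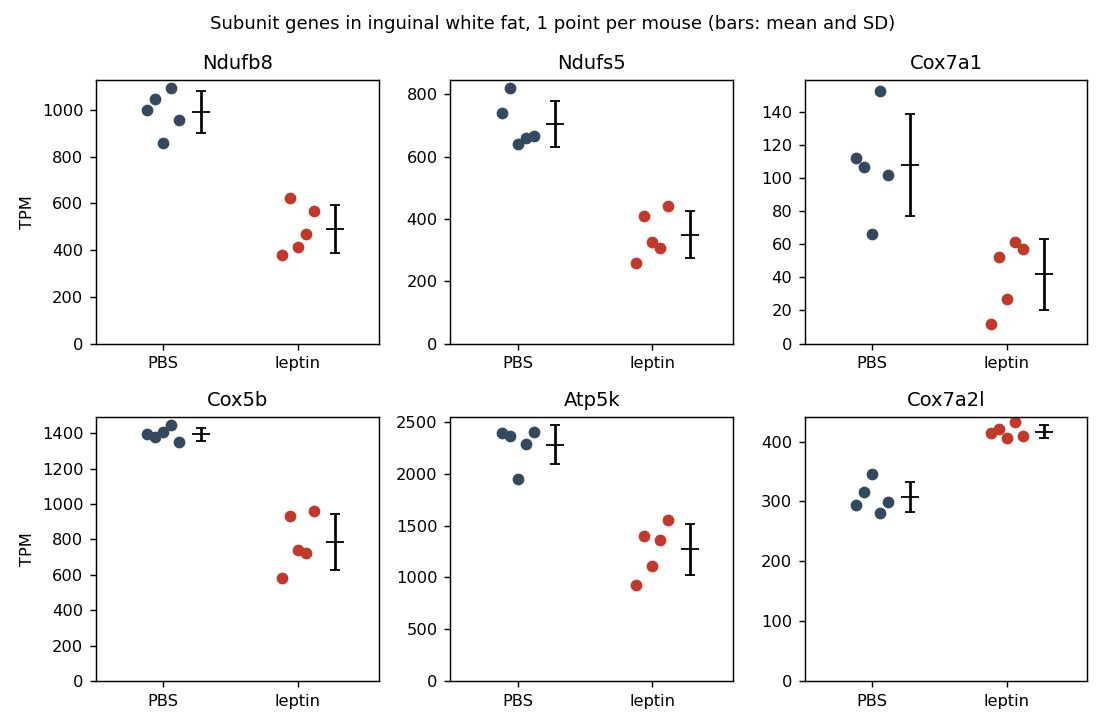
TPM of Ndufb8, Ndufs5, Cox7a1, Cox5b, Atp5k and Cox7a2l in iWAT of 5 WT females with PBS and 5 with leptin. Points are mice, and lines and bars are mean ± SD. The groups lie apart in all 6 panels, lower with leptin in the first 5 and higher for Cox7a2l.

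Muscle markers varied within both iWAT groups, at 107 to 4426 TPM with PBS and 31.9 to 5751 TPM with leptin, and 0 of 15 were called, with a median of -0.17. Without the 4 libraries above 1000 TPM, which leaves 3 against 3, 4 members fell, Ndufb8 among them (-0.97, adjusted p = 0.0468), and the median was -0.46. White adipocyte markers summed to 67070 to 85848 TPM with PBS and 55378 to 94936 TPM with leptin, with 4 of 9 fallen and 1 risen, among them Fabp4 (-1.11), Plin1 (-0.95) and Cfd (1.42). Of 6 brown and beige markers, Dio2 rose by 3.76 and Elovl3 by 1.69, Otop1 fell by 1.10, and Ucp1 read 7.35 to 24.5 TPM with PBS and 6.47 to 60.7 TPM with leptin (1.22 ± 0.56, adjusted p = 0.128). Erythroid markers, with 5 of 7 fallen, summed to 2712 to 3637 and 285 to 1523 TPM. The part of these cells in the subunit values was not tested.

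Leptin effects in iWAT and CV of the same 10 WT females were compared as an interaction. The mouse was not a factor in this fit, so samples of the same mouse counted as separate libraries. The effect was higher in iWAT for 2 members (6.33% of all tested genes) and lower for 2 (9.12%). The median over members was -0.11, and that over all tested genes is not given here. Cox7a2l (0.50 ± 0.12, adjusted p = 0.0103) and Ndufa6 (0.51 ± 0.17, adjusted p = 0.0455, and 0.0597 with no TPM minimum) were higher, and Cox6a1 (-0.73 ± 0.20, adjusted p = 0.0168) and Cox8a (-0.63 ± 0.20, adjusted p = 0.0357) lower. Calls that fell in both iWAT and male WT CV numbered 15, which are 15 of 33 in iWAT and 15 of 24 in CV, and include Atp5k, Cox5b, Cox7a1, Ndufa4 and Ndufs5. No call was shared between iWAT and female WT CV.

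In LV, where both genotypes were pooled with genotype in the fit (9 against 9), differences were small and the 5 called members were all in complex I. Ndufa5 fell by 0.25 ± 0.07 (adjusted p = 0.042), Ndufa12 by 0.22 (adjusted p = 0.0394), Ndufv1 by 0.20 (adjusted p = 0.0314), Ndufa10 by 0.20 (adjusted p = 0.0332) and Ndufs1 by 0.18 ± 0.04 (adjusted p = 0.0214). The groups overlapped in each. In all, 0 members rose (2% of all tested genes did) and 5 fell (3.42%), with a median of -0.12 beside -0.00 over all genes, and on the TPM scale of -0.02 beside 0.06. Summed levels were 22675 ± 418 TPM with PBS and 22344 ± 984 TPM with leptin in WT females. The count fell to 0 without BMAd-Pnpla2-/- PBS replicate 4, WT leptin replicate 1 or WT PBS replicate 4.

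Genes that build or feed the chain were read from lists beside the subunits. In iWAT, where 12.8% of all tested genes rose and 13.2% fell, 20 of 45 assembly factors fell and 1 rose (median -0.33), led by Cox19 (-0.84) and Atpaf2 (-0.80), with Sco2 risen (0.49). Of 12 enzymes of the citric acid cycle, 5 fell, led by citrate synthase Cs (-1.01), Idh3a (-0.89) and Mdh2 (-0.75), and cytochrome c (Cycs, -1.003) fell too. Of 14 regulators of mitochondrial biogenesis, 3 rose, Gabpb1 (0.46), Nrf1 (0.36) and Tfam (0.29), 1 fell, Polrmt (-0.21), and 10 did not pass. Mitochondrial ribosomal proteins fell in 31 of 77 and rose in 2 (median -0.23), and proteasome subunits fell in 21 of 38 and rose in 2. Cytosolic ribosomal proteins rose in 72 of 80 (median 0.63), and these last 3 lists were chosen after the data were seen.

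In female WT CV, where 4.85% of all tested genes rose and 3.93% fell, assembly factors had a median of -0.12 with 0 of 45 called, 1 of 12 cycle enzymes fell, Sucla2 (-0.42), and of 14 regulators Pprc1 rose (0.47) and the muscle gene Perm1 fell (-1.03). In male WT CV, where 1.7% of all tested genes fell, 1 assembly factor (Ndufaf6, -0.44), the cycle enzyme Idh3b (-0.37), cytochrome c1 (Cyc1, -0.38), Perm1 (-0.56) and Esrra (-0.25) fell. In LV, where 3.42% of all tested genes fell, 4 of 45 assembly factors, 2 of 12 cycle enzymes and 1 of 14 regulators, Nrf1 (-0.18), fell.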

How the data were processed

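RNA of 79 libraries from 51 mice was enriched with oligo dT and read as 100 bp pairs. SOAPnuke removed poor reads, HISAT and Bowtie2 served for alignment to GRCm38.p6, and the counting tool is not given in the sources used here. The authors deposited estimated counts per gene without normalisation, and TPM, which the authors scaled to a fixed total in each library. Of the estimated counts, 51 were not whole and were rounded.

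The filter of the study, a mean TPM of 0.4 or more, left 14873 genes. Their counts entered edgeR 4.0.16 (quasi-likelihood test, TMM, R 4.3.3), with Benjamini-Hochberg adjustment. Groups of 1 comparison were fitted alone, interactions and the insulin groups in fits of 4 groups, and the 3 tissues in 1 fit. SEs were derived from the F statistic. A member was called at an adjusted p below 0.05. Counts at an unadjusted p below 0.05 have no share over all tested genes beside them. The same holds for counts from the alternatives and from fits that leave out mice. Alternatives used DESeq2 1.42.0 and limma 3.58.1 on log2 TPM with a pseudocount of 1 or 0.1. Others used different filters, a fold threshold, or left out each mouse. The replicate number served as a block, or the mouse in fits across tissues. The number series, or the mean log2 level of the muscle markers, served as a covariate. Scripts were tested on simulated data. Libraries of a group were not copies of each other (chi-square per gene of at least 11.2).

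Leptin and PBS samples with the same number are different mice. Correlations of their deviations from the group means ran from -0.23 to 0.34 in female WT CV and -0.22 to 0.10 in male WT CV. They ran from -0.17 to 0.39 in iWAT and -0.42 to 0.46 in LV. Same-numbered CV, LV and iWAT samples are the same mouse. Their mean correlations were 0.12 for CV with LV, 0.06 for CV with iWAT and 0.14 for iWAT with LV. Such correlations therefore cannot show whether samples are paired.

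Members and lists were chosen with earlier results of these data known. Named genes were all paralogous forms, the subunits of complex II, the members with the highest level, members below the filter, for each comparison and complex at most 2 called members each way with the largest change, and for each list at most 3 called genes. Other genes were named after their values were seen. Promoters came from RefSeq on GRCm38.p6. Protein sequences were not used here. P-values measure the spread between mice, except in fits across tissues.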

Additional observations from a re-analysis of the deposited data

Results flagged for a closer look

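Of 256 sets of values, each a summed level or a form in 1 group of 4 to 8 libraries, 23 held a library far from the others. By chance a single set is flagged about 1 time in 20. The sets share libraries and genes, so whether the count exceeds that rate cannot be judged. In female WT CV with leptin, replicate 2 stood above the other 4 libraries in every complex, at 15889 TPM in complex I (next 12145), 903 in complex II (next 736), 4506 in complex III (next 3239.7), 13111 in complex IV (next 9568) and 17511 in complex V (next 13170.5), and at 51920.2 TPM in all (next 38694). The same library was above the others for Cox6a2 at 795 TPM (next 440.42), Cox7a1 at 565 TPM (next 292) and Cox8b at 1259 TPM (next 618).

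In female WT iWAT with leptin, replicate 2 held 5751 TPM of muscle markers (next 1194) and 43.9 TPM of Cox6a2 (next 8.06). With PBS, replicate 2 of the same tissue held 32.1 TPM of Ndufa4l2 (next 18.4). In female BMAd-Pnpla2-/- CV with leptin, replicate 3 held 16678 TPM in complex V (next 14355) and 49356 TPM in all (next 42269). In female WT LV with leptin, replicate 4 held 2128 TPM in complex III (next 1926), 3150.1 TPM of muscle markers (next 1874) and 94.6 TPM of Cox6a2 (next 40.6), and with PBS, replicate 4 was the lowest in all members at 21948 TPM (next 22727). In male WT CV with PBS, replicate 4 held 1213 TPM of Cox7a1 (next 911) and 69.9 TPM of Cox4i2 (next 51.5). With PBS and insulin, replicate 1 was the lowest in complex V at 16429.8 TPM (next 17707) and for Cox7a2 at 330.6 TPM (next 519), and the highest for Ndufa4l2 at 245 TPM (next 215).

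The effect of leptin differed between iWAT and CV of WT females by the interaction term of edgeR for Ndufa6 (0.51) and Cox7a2l (0.50), higher in iWAT, and for Cox6a1 (-0.73) and Cox8a (-0.63), lower in iWAT.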

How the results depend on the processing

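Counts of members called by other settings are set beside those of the report. The share of all tested genes that each setting called is not given in this section. A higher count can therefore not be read as an excess of members. In female WT CV (2 called), 1 fit of all CV groups called 8, DESeq2 9, limma 6 with a pseudocount of 1 and 6 with 0.1, a fold threshold of 0.5 (log2) 1, the number series as a factor 7 and the muscle covariate 4. In male WT CV (24 called) these were 14 with all CV groups, 53 by DESeq2, 5 with the fold threshold, 44 with the number series and 2 with the muscle covariate. In iWAT (34 called) DESeq2 called 52, limma 60 with either pseudocount, and the fit without the 4 libraries rich in muscle markers 4. In LV (5 called) DESeq2 called 9, limma 0 with either pseudocount, the fold threshold 0, the number series 9 and the muscle covariate 0. For insulin on leptin (0 called) DESeq2 called 3 and the muscle covariate 10. For CV against LV (50 called) limma called 85 with a pseudocount of 1 and 84 with 0.1, and the fold threshold 28. For leptin by tissue (4 called) limma called 9 with either.

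With the replicate number as a block, 12 members were called in female WT CV, 0 in male WT CV, 44 in iWAT and 5 in LV. For the contrasts between tissues and leptin by tissue, the block was the mouse, which paired the samples. Leptin by tissue then called 5, and the block moved no other count by more than 1.5 times. Replicate numbers do not pair leptin with PBS mice. Samples that correlated best with their own number were 2 of 5 in female WT CV, 0 of 5 in male WT CV, 2 of 5 in iWAT and 4 of 9 in LV.

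Leaving out 1 mouse gave 0 to 48 members in female WT CV, 3 to 46 in male WT CV, 20 to 42 in iWAT, 0 to 7 in LV, 0 to 3 for insulin on leptin, 45 to 52 for CV against LV, 64 to 68 for CV against iWAT, 64 to 69 for iWAT against LV and 2 to 4 for leptin by tissue, and 0 in all other comparisons.

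Directions by TMM turned on the log2 TPM scale for some genes called between tissues. CV against LV gave by limma, with a pseudocount of 0.1 and of 1, 0.66 and 0.66 for Atp5h, 0.38 and 0.38 for Atp5pb, 0.39 and 0.39 for Cox6a1, 0.81 and 0.81 for Cox6b1, 0.54 and 0.54 for Cox7a2, 0.26 and 0.26 for Cox8a, 0.41 and 0.41 for Ndufa3, 0.66 and 0.66 for Ndufb1, 0.49 and 0.48 for Sdhd, 0.75 and 0.74 for Uqcrfs1, and 0.49 and 0.49 for Uqcrh. iWAT against LV gave 0.34 for Atp5md, 0.73 for Cox7a2l and 0.35 for Ndufb4 with either. Cox6a2 in CV against LV turned to -0.29 with the muscle covariate. Over single genes and settings, 9009 values kept direction and side of the threshold, 213 lost the call, 96 gained it and 29 turned. The cause of these changes was not tested, and fits that leave out mice hold fewer samples.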
